A study of Rattus norvegicus with 10 samples.

Results

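Immediate early genes are the genes that neurons switch on first when they become active, before any new protein has been made. Most of them encode transcription factors that pass the signal on to later genes, and one, *Arc*, encodes a protein that acts directly at the synapse. A set of 10 such genes was chosen by symbol, with earlier results of these data known. It held *Fos*, *Fosb* and *Junb*, which form the AP-1 transcription factor. It also held *Egr1*, *Egr2*, *Egr3* and *Egr4*, the zinc finger factors of the EGR family. The others were *Npas4*, a factor induced by calcium entry, *Nr4a1*, an orphan nuclear receptor, and *Arc*. Of these 10 genes, 7 had a row among the 12828 genes of the table analysed, and *Fosb*, *Egr2* and *Npas4* had none. Why a gene had no row was not determined, so a missing row is not read here as a low level. All 7 are protein-coding, and none of their symbols was repeated in the table.

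The libraries were made from the arcuate nucleus of the hypothalamus (ARC) of 10 Wistar dams, taken at parturition after a daytime fast. All dams were in their first pregnancy and ate an AIN-93G diet during pregnancy. In 5 dams the diet held folic acid at 5X the recommended quantity (5X-FA), and in the other 5 it held the equimolar quantity of [6S]-5-methyltetrahydrofolic acid (5X-MTHF). The tissue was cut free hand from frozen slices, so that the samples could hold neighbouring regions, and the age of the dams was not given in the sources used here. The level used for each gene is 1 value over the table as a whole, the average log2 CPM (CPM is a gene's reads scaled to the total of its library), taken as the average over the libraries of both diets. A further 10 columns hold values per library, but their names correspond to none of the labels, and they were left out. No level per dam, no spread between dams and no comparison of 5X-MTHF with 5X-FA is therefore given, and read totals per library were not obtained; the methods of the study state only an approximate depth common to all samples. For the same reason, whether genes next to each other in the order of levels differ beyond the spread between dams was not tested.

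In neurons, calcium entry and growth factor signalling act on factors that are already bound at the promoters of immediate early genes. CREB binds the cAMP response element (CRE), and serum response factor binds the CArG box together with Elk factors. The promoters of 5 of the 10 genes are shown because they hold such elements, each as 300 bases from 250 before to 50 after the start of the gene (RefSeq, GRCr8). *Egr2* had no row in the table and is shown for comparison with *Egr1*. Capitals mark the half-CRE (TGACG, or CGTCA on the other strand), the CArG box, the TATA box (TATAAA) and the EGR site (GCGNGGGCG), on either strand.
*Egr1*, chr18:26736828-26737127, plus strand: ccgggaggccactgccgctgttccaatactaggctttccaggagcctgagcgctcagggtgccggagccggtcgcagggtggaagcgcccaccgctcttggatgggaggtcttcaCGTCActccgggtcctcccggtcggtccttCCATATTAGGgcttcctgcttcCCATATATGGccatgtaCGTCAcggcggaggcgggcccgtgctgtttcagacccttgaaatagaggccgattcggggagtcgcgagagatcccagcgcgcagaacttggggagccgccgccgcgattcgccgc
*Egr2*, chr20:21054392-21054691, minus strand: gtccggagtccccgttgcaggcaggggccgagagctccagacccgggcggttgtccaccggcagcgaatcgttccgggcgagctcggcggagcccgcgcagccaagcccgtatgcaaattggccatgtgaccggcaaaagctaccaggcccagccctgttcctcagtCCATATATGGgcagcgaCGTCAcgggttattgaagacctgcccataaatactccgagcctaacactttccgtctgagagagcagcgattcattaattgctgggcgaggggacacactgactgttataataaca
*Egr4*, chr4:119607768-119608067, minus strand: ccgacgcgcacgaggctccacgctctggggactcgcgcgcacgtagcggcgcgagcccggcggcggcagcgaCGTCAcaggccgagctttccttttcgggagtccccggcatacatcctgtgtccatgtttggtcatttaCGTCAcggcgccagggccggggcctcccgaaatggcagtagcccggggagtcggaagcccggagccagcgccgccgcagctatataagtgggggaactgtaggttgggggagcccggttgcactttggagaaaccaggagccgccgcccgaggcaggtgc
*Junb*, chr19:40080876-40081175, plus strand: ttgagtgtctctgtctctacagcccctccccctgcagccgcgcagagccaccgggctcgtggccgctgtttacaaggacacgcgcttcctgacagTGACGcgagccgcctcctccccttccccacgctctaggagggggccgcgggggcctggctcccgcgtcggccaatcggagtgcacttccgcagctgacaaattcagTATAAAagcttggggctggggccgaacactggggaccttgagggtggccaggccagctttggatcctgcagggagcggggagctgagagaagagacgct
*Nr4a1*, chr7:134259888-134260187, plus strand: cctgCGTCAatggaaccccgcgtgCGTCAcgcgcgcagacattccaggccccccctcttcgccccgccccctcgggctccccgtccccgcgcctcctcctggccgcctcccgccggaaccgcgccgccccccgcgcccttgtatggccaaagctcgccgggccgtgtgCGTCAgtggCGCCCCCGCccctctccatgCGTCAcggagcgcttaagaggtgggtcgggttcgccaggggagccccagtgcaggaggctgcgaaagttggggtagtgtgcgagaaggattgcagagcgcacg

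The promoters shown above were picked because they hold such elements, so the choice itself fixed that they share one. Of all the listed genes with a promoter at hand, 5 of 7 held a half-CRE, and *Fosb* and *Npas4* did not. It was present in 4 of 4 promoters at hand for genes with a row, *Egr1*, *Egr4*, *Junb* and *Nr4a1*, which held 9 copies between them. The elements were chosen after promoters had been looked at, so these counts are no test against other promoters. Of all 33469 RefSeq promoters of the same length 21.2% held it, and of the 10623 promoters whose gene was also in the expression table, 30.5% did. More than one copy was found in 3 of the 4, compared with 8.52% of the promoters of genes in the table. *Nr4a1* had 4 copies, which began 246, 226, 82 and 53 bases before the start. *Egr1* had 2 copies, 135 and 66 bases before the start, and *Egr4* had 2, at 178 and 110 bases, while *Junb* had 1, at 155 bases. The full CRE (TGACGTCA), which contains the half-CRE, was found in 0 of the 4, in 1.83% of all promoters and in 3.01% of those of genes in the table.

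The *Egr1* and *Egr2* promoters carried the same pair of elements at the same place. Each held the CArG box CCATATATGG beginning 83 bases before the start, and a half-CRE beginning 66 bases before it, with 7 bases between them. Among all 33469 promoters only these 2 held that CArG box followed, after 7 bases, by CGTCA. The reverse order, with the half-CRE before the CArG box, was not searched. *Egr1* held a further CArG box, CCATATTAGG, at 105 bases. A CArG box of any sequence was found in 1.64% of all promoters and 1.29% of those of genes in the table, and one together with a half-CRE, at any distance, in 0.272%. All 5 half-CREs of *Egr1*, *Egr2* and *Egr4* lay inside the longer run ACGTCAC, which 3.73% of all promoters and 5.95% of those of genes in the table held on either strand, whereas none of those of *Junb* and *Nr4a1* did. This run and the distance between the elements were picked out after the sequences were seen.

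Among genes with a row, TATAAA and the EGR site were each found in 1 gene. *Junb* had TATAAA, 49 bases before the start, which 14.2% of all promoters and 6.72% of those of genes in the table held on either strand. Only these letters were searched, so other forms of a TATA box, such as TATATAAG in the *Egr4* and *Npas4* promoters, were not counted. *Nr4a1* had an EGR site, the sequence that EGR factors bind, 73 bases before the start, compared with 4.98% of all promoters and 10.6% of those of genes in the table. The AP-1 site (TGANTCA), which Fos and Jun proteins bind, was in 0 of the 4, in 7.33% of all promoters and in 4.55% of those of genes in the table. For the genes without a row, *Fosb* held TATAAA on the opposite strand and *Npas4* held none of the 6 elements in the letters searched. The GC content of the 4 promoters of genes with a row lay between 64.7% in *Egr1* and 72.3% in *Nr4a1*, above the median of 61.0% for genes in the table. Of the genes without a row, *Npas4* (67.0%) lay above that median, and *Egr2* (59.0%) and *Fosb* (47.7%) lay below it. Promoters of *Fos*, *Egr3* and *Arc* were not analysed here.

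Most of the 7 genes were in the lower part of the range of levels. Their average levels ran from 2.39 log2 CPM (*Egr4*) to 5.33 log2 CPM (*Egr1*), with a median of 3.70, whereas the median over all 12828 genes was 4.94. Only *Egr1* lay above that median. Summed, the 7 genes reached 108 CPM, of which *Egr1* alone supplied 37.3%.

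**Figure D1:**
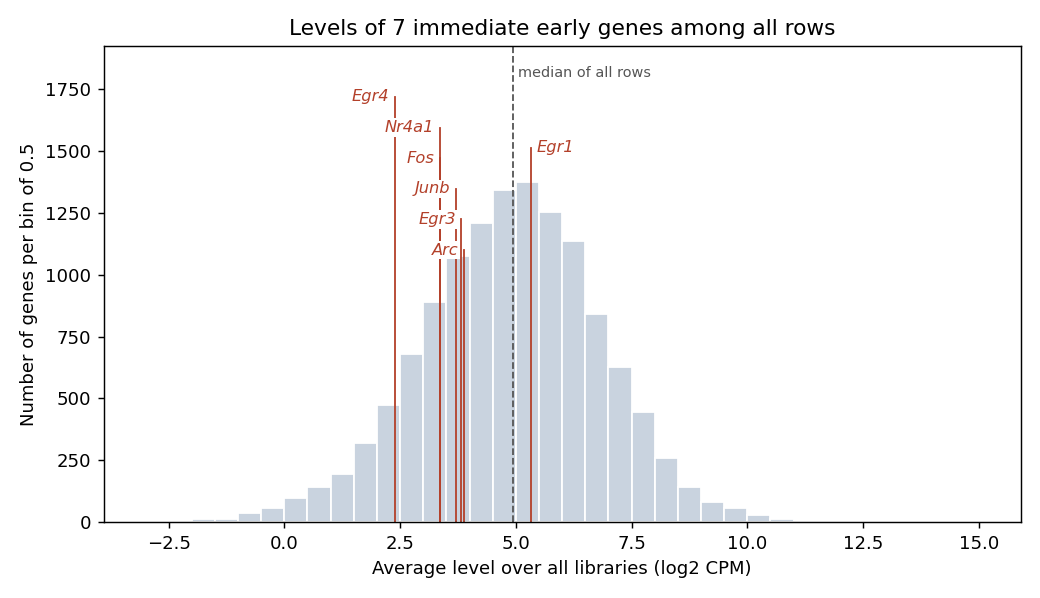
Histogram of the average level of all 12828 genes (log2 CPM, in bins of 0.5) with a line at the level of each of the 7 immediate early genes. *Egr1* stands at 5.33, to the right of the median of all genes (dashed, 4.94), and the other 6 genes stand to its left.

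As CPM depends on the length of a transcript, levels of different genes were also divided by the span of the gene in kilobases, from start to end of the gene on Rnor_6.0. The span includes introns, so that this value is lower than a level per kilobase of transcript, above all for genes with long introns. On this scale 6 of the 7 genes lay above the median of all genes, which was 1.52 CPM per kb of span, and the median of the 7 was 3.58 CPM per kb.

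Among the EGR factors, *Egr1* had the highest level on both scales. *Egr1* (chromosome 18, 27657628 to 27661429 on Rnor_6.0) had an average of 40.2 CPM, or 10.6 CPM per kb of span, and 58.0% of genes had a lower log2 CPM. *Egr3* (chromosome 15, 51756736 to 51760722), which *Egr1* resembles in its DNA-binding domain, had 14.1 CPM, or 3.55 CPM per kb of span. *Egr4* (chromosome 4, 117293620 to 117296082) was the lowest member of the whole set on the scale of reads, with 5.24 CPM, or 2.13 CPM per kb of span, and 9.72% of genes were lower in log2 CPM. Per kilobase of span, *Egr1* was 2.98-fold higher than *Egr3* and 4.97-fold higher than *Egr4*. The EGR corepressors *Nab1* and *Nab2*, which bind these factors and damp their activity, had average levels of 46.8 and 16.0 CPM.

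*Fos* and *Junb* had lower levels than *Jun* and *Jund*, the other Jun genes of AP-1. *Fos* (chromosome 6, 109300433 to 109303299), whose protein binds DNA as a dimer with Jun proteins, had an average of 10.3 CPM, or 3.58 CPM per kb of span. *Junb* (chromosome 19, 26092974 to 26094756), a Jun protein with weaker activation than c-Jun, had 13.0 CPM, or 7.31 CPM per kb of span. These relatives, *Jun* and *Jund*, which are not among the 10 genes, had 21.4 and 58.3 CPM per kb of span. Per kilobase of span, *Jun* was thus 5.99-fold and *Jund* 16.3-fold higher than *Fos*. *Fosl2*, another Fos family gene, had 0.241 CPM per kb over a span of 18.1 kb, and *Fosl1* had no row.

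*Arc* and *Nr4a1* lie on the same chromosome. *Arc* (chromosome 7, 115907097 to 115910541), whose protein promotes the removal of AMPA receptors from the synapse, had the second-highest level of the 7 genes in reads, 14.7 CPM, and 4.25 CPM per kb of span. *Nr4a1* (chromosome 7, 142905758 to 142920216) had 10.2 CPM. Its span of 14.5 kb was the longest of the set, and with 0.707 CPM per kb of span it was the only member below the median of all genes on that scale. Its relatives *Nr4a2* and *Nr4a3* had 15.2 and 10.3 CPM, or 1.92 and 0.260 CPM per kb of span, so that *Nr4a1* stood between them per kilobase of span.

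**Figure D2:**
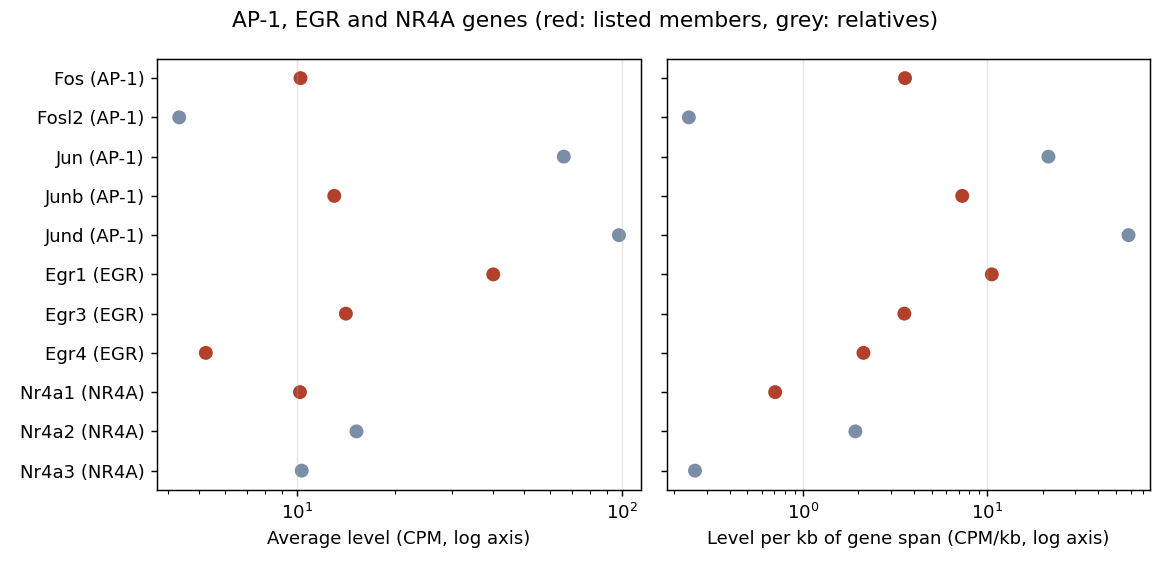
Average level of the AP-1, EGR and NR4A genes with a row, as CPM (left, log axis) and as CPM per kb of gene span (right, log axis), 1 point a gene, with the immediate early genes studied in red and their relatives in grey. *Jund* (97.8 CPM, 58.3 CPM per kb) and *Jun* are the highest on both axes, and *Egr1* is the highest of the red points.

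Of the 7 genes, 6 were compact, with *Nr4a1* as the exception. Their spans ran from 1.78 kb (*Junb*) to 14.5 kb (*Nr4a1*) with a median of 3.45 kb, compared with 5.96 kb for 28 other activity-induced genes and 21.5 kb over all genes in the table. In 6 of the 7 the span was below 5 kb, as it was in 17.3% of all genes. They were spread over 6 chromosomes, and 0 rows of the table overlapped any of them. *Junb* had the closest gene before it, *Prdx2* at 2.88 kb, and *Egr3* the closest after it, the row AC111804.2 at 0.881 kb. The rows on either side of *Fos* were *Tmed10*, 95.4 kb before it, and *Jdp2*, a Jun dimerization partner, 163 kb after it and listed at 4.08 log2 CPM. *Ier2*, another immediate early gene, lay 317 kb from *Junb*.

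**Figure D3:**
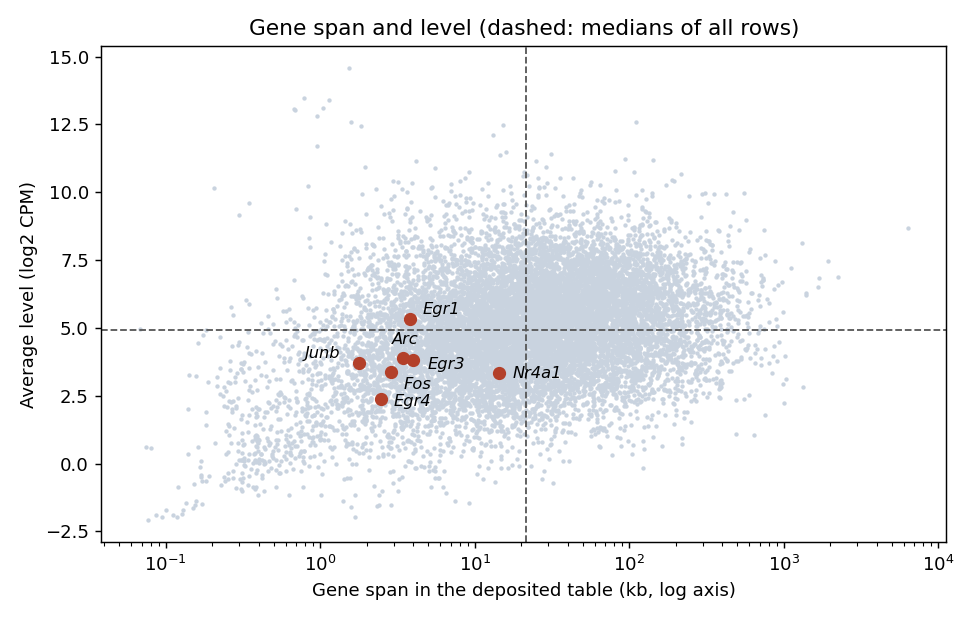
Gene span on Rnor_6.0 (kb, log axis) against average level (log2 CPM) for all 12828 genes (grey) and the 7 immediate early genes (red), with the medians of all genes dashed. All of the 7 but *Nr4a1* lie below 5 kb, and all but *Egr1* lie below the median level.

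Other genes that activity induces had a median level close to that of the 7. Of 36 further symbols of this kind, 28 had a row. The median level was 3.94 log2 CPM, and 9 of the 28 lay above the median of all genes. The highest in reads were *Rheb*, a small GTPase that activates mTORC1, *Jund* and *Sgk1*, a kinase induced by glucocorticoids, with 7.03, 6.61 and 6.50 log2 CPM. The phosphatase genes *Dusp1* and *Dusp6*, which switch MAP kinases off, had 3.95 and 4.05 log2 CPM, close to the level of *Arc* (3.87). Promoters were at hand for 22 of these genes. In at least 1 promoter 13 of the 22 held a half-CRE and 7 a full CRE, while 0 held a CArG box. Of their 29 promoters, 44.8% held a half-CRE, 24.1% a full CRE and 0 a CArG box. The shares among promoters of genes in the table were 30.5%, 3.01% and 1.29%.

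The genes upstream had a higher median level in reads than the 7 genes, and a lower median per kilobase of span, though single genes overlapped on both scales. Of 26 symbols for kinases, channels and factors that drive immediate early gene transcription, 24 had a row, with a median of 5.94 log2 CPM, and 20 of them lay above the median of all genes. *Camk2b*, *Grin1* and *Camk2a*, the subunits of a calcium-activated kinase and of the NMDA receptor, were the highest in reads, with 9.08, 8.54 and 8.44 log2 CPM. The factors that bind the elements shown above were lower in reads: *Creb1* had 3.61, *Srf* 5.42, *Elk1* 5.20 and *Elk4* 5.96 log2 CPM. Per kilobase of span, *Srf* (4.48 CPM) and *Elk1* (4.75 CPM) lay above *Camk2a* (3.41 CPM). *Creb1* (0.193 CPM) and *Elk4* (2.74 CPM) lay below it on that scale. The upstream genes have long spans, with a median of 76.0 kb. Per kilobase of span their median was 0.821 CPM, below the 3.58 of the 7 genes. Of 24 promoters of upstream genes, 12 held a half-CRE, compared with 30.5% of the promoters of genes in the table. Of 13 symbols for partners and corepressors 12 had a row, with a median of 5.74 log2 CPM. *Arnt2*, a dimer partner of *Npas4*, was the highest of them in reads at 7.97 log2 CPM, and *Arnt* had 4.77.

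**Figure D4:**
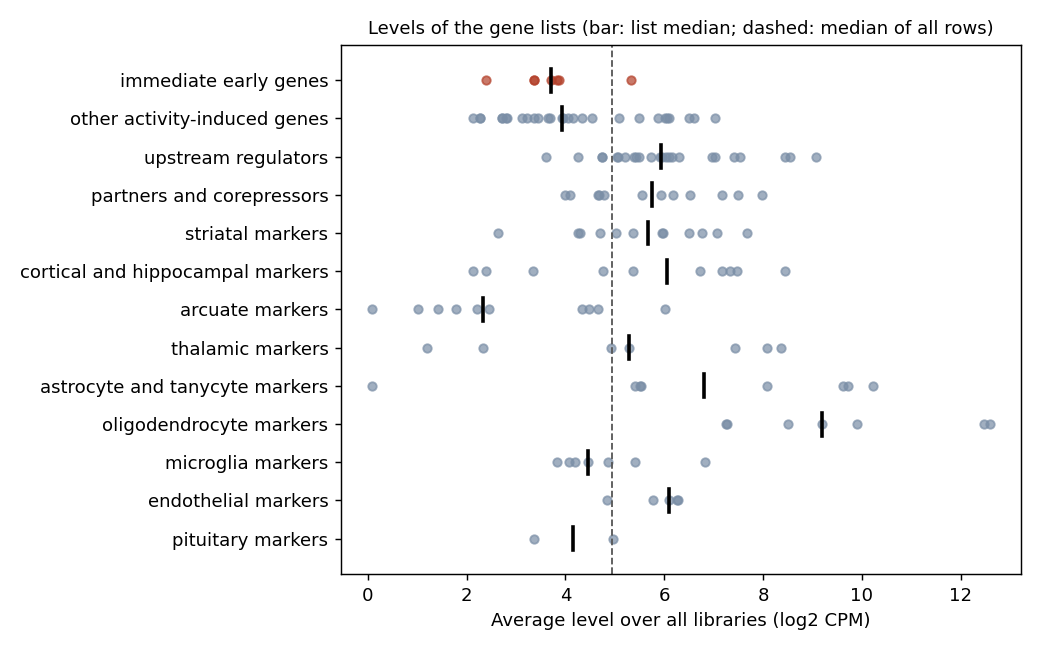
Average level (log2 CPM) of each gene of the lists, 1 point a gene, with the list median as a black bar and the median of all genes dashed. The 7 immediate early genes (red, median 3.70) and the other activity-induced genes (median 3.94) lie mostly left of the dashed line, and the upstream regulators (median 5.94) mostly right of it.

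The tissue was checked against markers, because the level of an immediate early gene is a sum over all cells sampled. Of 12 markers of the ARC, 10 had a row. They had a median of 2.33 log2 CPM and a summed level of 152 CPM. *Cartpt* had 6.02, *Pomc* 4.67 and *Agrp* 1.42 log2 CPM, while *Npy* had no row, which is not read as a low level. All of 12 striatal markers had a row, with a sum of 809 CPM, led by *Penk* and *Ppp1r1b* at 7.68 and 7.07 log2 CPM. Of 13 cortical and hippocampal markers 10 had a row, with a sum of 1026 CPM, led by *Camk2a*, *Nrgn* and *Nptx1*. Thalamic markers (7 of 8 with a row) summed to 852 CPM. They were led by *Cplx1*, *Slc17a6* and *Calb2*, while *Rora* and *Tnnt1* had 2.34 and 1.20 log2 CPM. Markers of astrocytes and tanycytes (8 of 8), oligodendrocytes (7 of 7), microglia (7 of 7) and endothelium (5 of 6) summed to 3240, 14061, 256 and 306 CPM. The lists differ in length, and the sums do not give the share of a region or cell type. Many of these genes are also used by hypothalamic cells, and the part of each region or cell type in the levels of the immediate early genes was not tested. In such bulk samples fewer active cells and less RNA per active cell cannot be told apart.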

How the data were processed

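RNA of the ARC of 10 dams (5 on 5X-FA, 5 on 5X-MTHF, groups and replicate numbers from the sample titles) was sequenced after poly-A selection. As the submitters' processing notes and the paper's methods state, reads were trimmed (Trim Galore 0.5.0), aligned to Rnor_6.0 by STAR 2.6.0c, and assigned to Ensembl gene models by HTSeq 0.6.1p2. The authors deposited 1 table of 12828 genes, whose name marks it as filtered. The paper's methods state a minimum of 10 reads per gene, but not whether that filter made this table. Its average level per gene is on a log2 scale (log2 CPM), and 2 raised to these deposited log2 values sums to 1.00e+06 over all genes. The tool behind this column is not given in the sources used here. The table also holds 4 columns of the authors' own comparison of the diets (fold change, test statistic, p-value, FDR), which were not used, and 10 per-sample columns whose names match no sample label and which were used in no step. The planned test between diets was therefore not run, and intervals between dams were not obtained. The paper's methods state an approximate depth common to all samples, and totals per library were not obtained here.

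Percentiles are the share of genes with a lower value. Gene span is end minus start plus 1 on Rnor_6.0. Genes were matched by symbol. The 10 genes and the other lists were chosen with earlier results of these data known. Named were all 10 genes, 7 of them with values, and, at most 3 genes of each list, those with the highest level, and any other gene was chosen after its values were seen. In 3 lists some symbols are older and newer names of the same gene. RefSeq promoters (GRCr8) were scanned for 6 elements on both strands, which were chosen after promoters had been looked at. The scan was tested on simulated sequences. Scripts ran in Python 3.11.15 (pandas 2.3.3, numpy 2.4.6, scipy 1.17.1), and plots were drawn by matplotlib 3.10.9.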

Additional observations from a re-analysis of the deposited data

How the results depend on the processing

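The place of the 7 genes among all genes depended on whether levels were divided by gene span. Their median level stood at percentile 25.8 of all 12828 genes. It stood at 24.0 among the 12383 protein-coding genes and at 23.6 among the 12462 genes at or above 1 log2 CPM. Per kilobase of gene span it stood at 71.6, and all 7 genes stood higher than in reads, by up to 58.6 percentile points. The span includes introns, so this scale favours compact genes. The span was under 5 kb in 6 of the 7, as it was in 17.3% of all genes. How much of the rise came from introns was not tested. The order changed too, but *Egr1* was the highest member under each of these settings. The exact binomial 95% interval of the first value was 25.1 to 26.6, and the medians under the other settings lay outside it. This interval covers only the number of genes. It does not cover the spread of the 7 members, which ran from percentile 9.72 to 58.0. Gene models with exon lengths were not used here, so a level per kilobase of transcript was not obtained.

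Of the test between diets no form was run: other pseudocounts, a filter on low values, no variance trend, centring of the libraries, a replicate block, protein-coding genes alone and leaving out each dam all need values per dam. No paired analysis was possible because the columns of values per library carry no label that ties them to a replicate number.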

Other observations

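Of 8 pituitary symbols, 2 had a row: *Cga* and *Tshb*, the subunits of thyrotropin, had average levels of 4.95 and 3.37 log2 CPM, the latter close to the level of *Fos* (3.36). *Prl*, *Gh1*, *Lhb*, *Fshb* and *Pou1f1* (also searched as *Pit1*) had none. *Rax*, a tanycyte marker, had 0.08 log2 CPM and *Kiss1* 0.08 log2 CPM, both below every one of the 7 immediate early genes.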
